A study of Homo sapiens with 4 samples.

Results

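The ID family and its E-protein partners are 7 of the 19729 genes listed in each library, chosen by GENCODE v29 symbol and Ensembl identifier and not by any measured value. The ID genes are ID1 (ENSG00000125968), ID2 (ENSG00000115738), ID3 (ENSG00000117318) and ID4 (ENSG00000172201). The E proteins are TCF3, also called E2A (ENSG00000071564), TCF4, also called E2-2 (ENSG00000196628), and TCF12, also called HEB (ENSG00000140262). RNA-Seq compared HT-29 cells expressing an APC shRNA with HT-29 cells expressing a non-silencing shRNA (NonS), in biological duplicates I and II of each, 4 libraries in all. HT-29 is a colorectal cancer line labelled MSS, BRAF-V600E and APC-mutant, so both groups carry those alterations and the shRNA acted on an already mutant APC. Each shRNA was delivered by lentivirus from a doxycycline (DOX)-inducible vector, cells were at passage 3 to 5 after transduction, and every library, NonS included, came from cells given 500 ng/ml DOX for 72 h. Only 1 APC shRNA was sequenced, in 1 cell line.

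Basic helix-loop-helix (bHLH) factors bind DNA as dimers at E-box sequences, and E proteins are the widely expressed partner in most such dimers. ID proteins have the helix-loop-helix but no DNA-binding region, so they hold E proteins in dimers that cannot bind DNA. BMP ligands, acting through receptors and SMAD1, SMAD5 and SMAD4, are classical inducers of ID1, ID2 and ID3, and ID2 has also been described as a Wnt target in colorectal cancer. The E-protein genes TCF3 and TCF4 are distinct from the HMG-box TCF/LEF factors that bind beta-catenin, although TCF7L1 and TCF7L2 have been called TCF3 and TCF4.

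Of the 7 genes, 4 gave values above 0 and passed the filter of a mean of at least 10 over the libraries: ID1, ID2, TCF3 and TCF12. ID3, ID4 and TCF4 were listed at 0 in all 4 libraries, as were 6930 of all 19729 genes. TCF3 was the only one upregulated with APC silencing. ID1, ID2 and TCF12 did not pass the test. Values are the whole numbers deposited, a score of unstated scale with depth in reads unknown. Differences are in log2(value + 1), APC shRNA minus NonS, tested with limma and adjusted by Benjamini-Hochberg over 5376 genes, and a call is an adjusted p under 0.05. By that rule 4.33% of the genes tested were higher and 3.70% were lower in the APC shRNA libraries. Their median difference was 0.03. With 4 genes tested, 1 call cannot be set apart from that background. The smallest adjusted p of any gene in this fit was 0.0423 (limma), so every call lay just under the threshold.

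**Figure D1:**
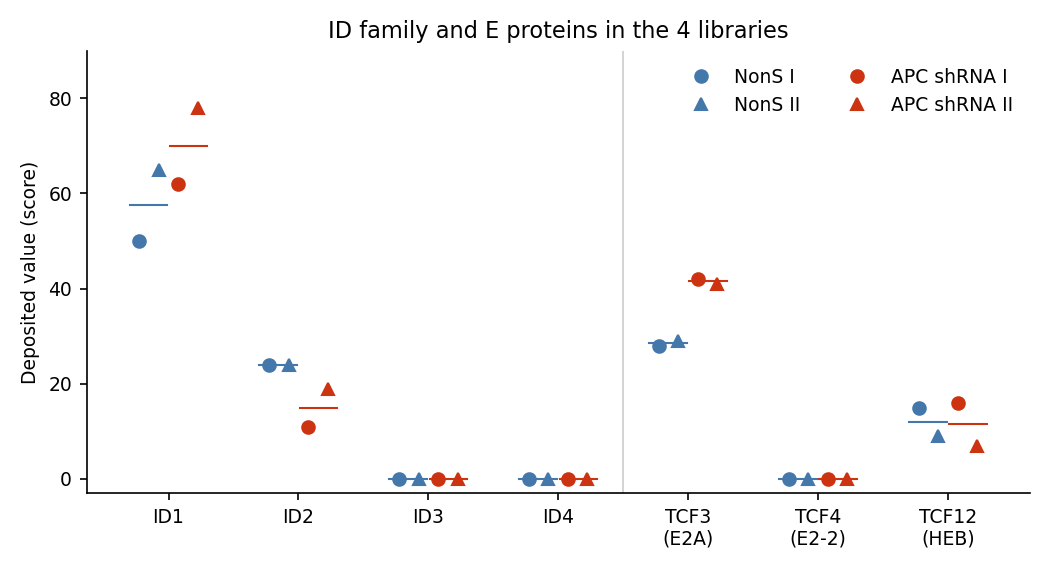
The deposited value (vertical axis, score) of each ID gene and E protein in the 4 libraries, with circles for replicate I, triangles for replicate II and a line at each group's mean. TCF3 is at 28 and 29 in NonS against 42 and 41 in APC shRNA, ID1 overlaps between the groups, and ID3, ID4 and TCF4 lie at 0.

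The windows from 250 bases before to 50 bases after the annotated start of ID1, ID2, ID3 and TCF3 are printed because these genes span the range from the highest member to one at 0 and include the one that changed. They come from RefSeq on GRCh38.p14, each 5′ to 3′ on the gene's own strand: ID1 at chr20:31605039-31605338 on the plus strand, ID2 at chr2:8681806-8682105 on the plus strand, ID3 at chr1:23559452-23559751 on the minus strand and TCF3 at chr19:1652566-1652865 on the minus strand. Capitals mark every match to a motif searched.
ID1: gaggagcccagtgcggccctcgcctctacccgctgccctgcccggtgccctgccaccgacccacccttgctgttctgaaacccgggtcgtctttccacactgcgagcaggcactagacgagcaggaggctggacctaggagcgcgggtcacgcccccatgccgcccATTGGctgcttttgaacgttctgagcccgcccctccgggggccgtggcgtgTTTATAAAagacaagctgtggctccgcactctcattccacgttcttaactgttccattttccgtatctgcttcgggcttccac
ID2: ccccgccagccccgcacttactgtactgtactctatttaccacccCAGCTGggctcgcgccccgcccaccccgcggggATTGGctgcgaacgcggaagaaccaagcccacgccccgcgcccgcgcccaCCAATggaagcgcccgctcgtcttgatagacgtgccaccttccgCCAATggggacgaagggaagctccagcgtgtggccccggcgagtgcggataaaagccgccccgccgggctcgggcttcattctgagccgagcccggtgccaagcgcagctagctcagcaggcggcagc
ID3: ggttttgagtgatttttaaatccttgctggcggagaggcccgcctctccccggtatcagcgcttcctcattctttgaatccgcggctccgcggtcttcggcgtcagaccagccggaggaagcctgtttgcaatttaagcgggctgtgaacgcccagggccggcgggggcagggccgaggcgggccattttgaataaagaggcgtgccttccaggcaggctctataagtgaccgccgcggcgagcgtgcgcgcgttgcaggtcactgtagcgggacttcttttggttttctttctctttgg
TCF3: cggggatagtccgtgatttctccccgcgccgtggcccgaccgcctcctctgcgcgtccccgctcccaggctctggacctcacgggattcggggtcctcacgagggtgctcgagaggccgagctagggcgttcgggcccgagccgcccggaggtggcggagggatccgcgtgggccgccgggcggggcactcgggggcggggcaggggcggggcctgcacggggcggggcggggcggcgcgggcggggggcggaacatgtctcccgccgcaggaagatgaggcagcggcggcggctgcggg

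On both strands 6 motifs were searched: CTTTGAT, a form of the core bound by TCF/LEF factors, GTCTAGAC, a SMAD palindrome, GGCGCC, a GC-rich element described for BMP SMADs, CANNTG, the E-box, CCAAT, and TATAAA, the TATA box. Of 35116 RefSeq windows of this length, 2.62% held CTTTGAT, 0.202% GTCTAGAC, 19.2% GGCGCC, 68.7% an E-box, 34.6% CCAAT and 11.5% TATAAA. The TCF/LEF core and both SMAD motifs were in none of the 5 windows read, which were these 4 and that of ID4. The ID1 window held CCAAT on the reverse strand at -84, counted from the annotated start, and TATAAA on the forward strand at -31, which overlaps a reverse-strand match at -33. The ID2 window held 1 E-box, CAGCTG, at -205, and CCAAT at -122, at -78 and, on the reverse strand, at -172. The ID4 window (chr6:19837120-19837419, plus strand) also held the E-box CAGCTG, at -21, with TATAAA at -29 and reverse-strand CCAAT at -220. Neither the ID3 window nor the TCF3 window held any of the 6. The window was 78.3% G and C for TCF3 and 62.7% for ID1. These matches describe letters and are not binding sites, and TCF4 and TCF12, with 10 and 5 annotated windows, were not searched. Sequence outside the windows was not searched either, so a window without a match does not show that a gene lacks the motif.

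ID1, the classical BMP-responsive inhibitor, lies at chr20:31605283-31606515 on the plus strand. Its value was 50 in NonS I, 65 in NonS II, 62 in APC shRNA I and 78 in APC shRNA II. APC shRNA II was highest and NonS I lowest, and the groups overlapped because NonS II exceeded APC shRNA I. The means were 57.5 ± 10.6 in NonS and 70.0 ± 11.3 in APC shRNA (SD, n = 2 each), a ratio of 1.22. The log2 difference of 0.28 (SE 0.20, 95% confidence interval -0.35 to 0.91) was within the replicate spread (limma, Benjamini-Hochberg adjusted p = 0.383). Within replicate I the log2 difference was 0.30 and within replicate II it was 0.26. Replicate II exceeded replicate I by 0.37 in NonS and by 0.33 in APC shRNA, so ID1 differed more between duplicates than between shRNAs. By its mean ID1 stood above 83.8% of the genes tested.

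ID2, an inhibitor with overlapping partners, is annotated in GENCODE at chr2:8678845-8684453 on the plus strand, with the RefSeq start used above inside that span. Its value was 24 in both NonS libraries, 11 in APC shRNA I and 19 in APC shRNA II. Both APC shRNA libraries were below both NonS libraries, a pattern shown by 27.5% of the genes tested. The means were 24.0 ± 0 and 15.0 ± 5.66 (SD, n = 2 each), a ratio of 0.625. The log2 difference was -0.69 (SE 0.30, 95% confidence interval -1.61 to 0.23), which did not pass (limma, Benjamini-Hochberg adjusted p = 0.211). It was set largely by 1 library: the difference was -1.06 without APC shRNA II and -0.32 without APC shRNA I. With the replicate number as a block and a GC content correction together, ID2 passed at an adjusted p of 0.0425 (limma). In that setting 2464 of the 5364 genes tested passed. A call there, for ID2 or for any gene below, therefore sets a gene little apart. ID2 shares 38 exonic bases with ID2-AS1 on the opposite strand. The directions of ID1 and ID2 were opposite in the means, and whether they differ was not tested.

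ID3 (chr1:23557918-23559794, minus strand) and ID4 (chr6:19837386-19840684, plus strand) encode the remaining inhibitors of the family. They were listed at 0 in NonS I, NonS II, APC shRNA I and APC shRNA II. Neither a level nor a fold can be given for them at this rounding, and they were not tested.

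TCF3 encodes the E2A proteins E12 and E47, the prototype E proteins that ID proteins bind, and lies at chr19:1609290-1652605 on the minus strand. Its value was 28 in NonS I, 29 in NonS II, 42 in APC shRNA I and 41 in APC shRNA II. The duplicates were 1 unit apart, the smallest step the whole numbers allow, and both APC shRNA libraries were above both NonS libraries, as were those of 33.0% of the genes tested. TCF3 was upregulated from 28.5 ± 0.707 to 41.5 ± 0.707 (SD, n = 2 each), a ratio of 1.46. The log2 difference was 0.53 (SE 0.05, 95% confidence interval 0.36 to 0.69, limma, Benjamini-Hochberg adjusted p = 0.0452), and it was higher in APC shRNA within both replicates, by 0.57 in I and by 0.49 in II. The difference was larger than that of 90.1% of the genes tested. With any 1 library left out the log2 difference stayed between 0.50 and 0.55, but the call was lost, with adjusted p between 0.150 and 0.208. In those fits of 3 libraries none of the 5376 genes passed the adjusted threshold, while 1119 to 1330 had an unadjusted p under 0.05.

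TCF4, annotated at chr18:55222331-55664787 on the minus strand, encodes E2-2, an E protein best known from plasmacytoid dendritic cells and neurons. It was listed at 0 in the 4 libraries. TCF4 shares 195 exonic bases with RPL21P126 and 65 with TCF4-AS2, each on the opposite strand.

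TCF12 encodes HEB, the third E protein, at chr15:56918623-57299281 on the plus strand. Its value was 15 in NonS I, 9 in NonS II, 16 in APC shRNA I and 7 in APC shRNA II. The replicate I libraries were both above the replicate II libraries, and the shRNA groups overlapped fully. The means were 12.0 ± 4.24 and 11.5 ± 6.36 (SD, n = 2 each), with a log2 difference of -0.12 (SE 0.51, 95% confidence interval -1.71 to 1.48, limma, Benjamini-Hochberg adjusted p = 0.885). That interval is too wide to exclude a change of the size seen for TCF3. Replicate II minus replicate I was -0.68 on the log2 scale in NonS and -1.09 in APC shRNA. The sign turned to 0.22 without NonS I, to 0.43 without APC shRNA II and to 0.10 after GC content correction.

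**Figure D2:**
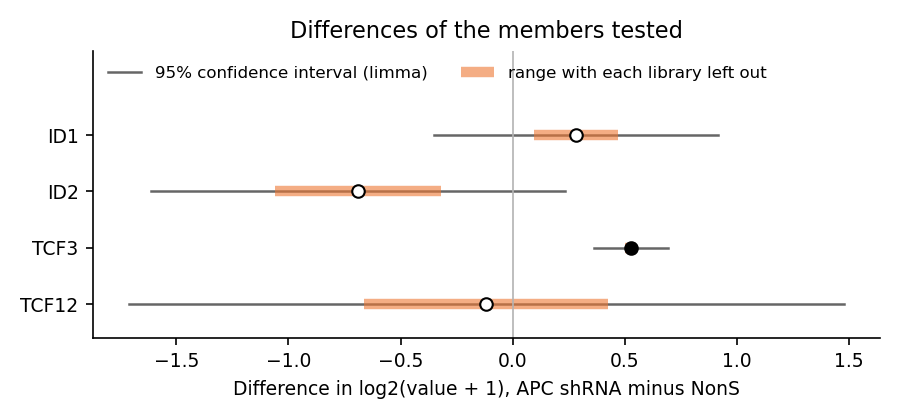
The log2(value + 1) difference of APC shRNA minus NonS (horizontal axis) for the 4 members tested, with the limma 95% confidence interval as a thin line, the range with each library left out as a thick band, and a filled point for an adjusted p under 0.05. The interval lies clear of 0 for TCF3, from 0.36 to 0.69, and spans 0 for ID1, ID2 and TCF12.

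The plot of duplicate differences sets the 4 genes against all genes tested. ID1 was higher in replicate II and TCF12 lower in replicate II under both shRNAs, TCF3 hardly differed, with 0.05 in NonS and -0.03 in APC shRNA, and ID2 differed by 0.74 in APC shRNA and not in NonS. Across the 5376 genes the differences between duplicates in NonS and in APC shRNA had a correlation of 0.724, a description across genes of 4 libraries.

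**Figure D3:**
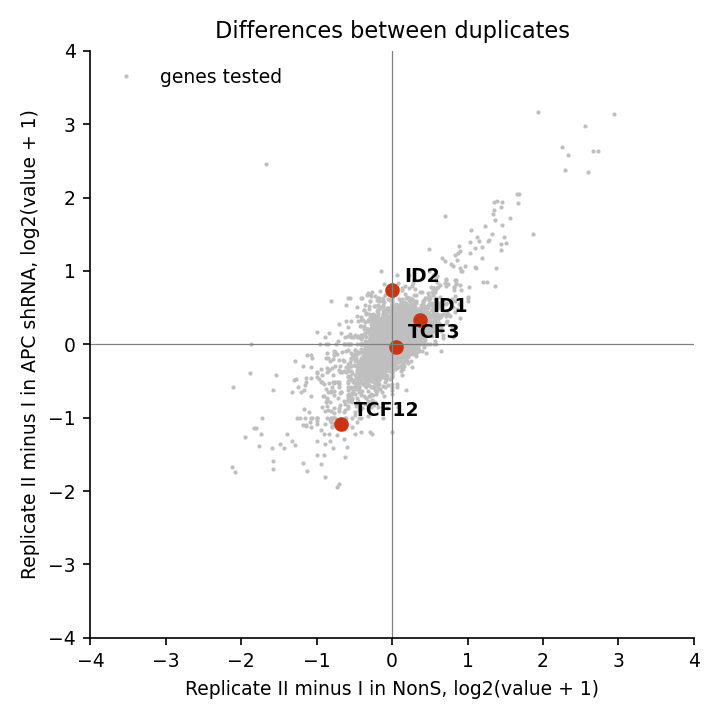
Replicate II minus replicate I in log2(value + 1), in NonS (horizontal axis) against APC shRNA (vertical axis), for the 5376 genes tested in grey and the 4 members tested in red. ID1 (0.37 and 0.33) and TCF12 (-0.68 and -1.09) lie along the diagonal of the cloud, TCF3 lies near the origin and ID2 (0 and 0.74) lies above it.

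The balance of inhibitor to partner was described by the summed values, which look like values per kb and can then be added across genes of different length. ID1 plus ID2 summed to 74 and 89 in NonS I and II against 73 and 97 in APC shRNA I and II. TCF3 plus TCF12 summed to 43 and 38 in NonS against 58 and 48 in APC shRNA. The sums of the E proteins did not overlap between the groups, and those of the ID genes did. That separation lay in TCF3 (28 and 29 against 42 and 41), as TCF12 (15 and 9 against 16 and 7) overlapped. Of the genes tested, 33.0% had both APC shRNA libraries above both NonS libraries. The ratio of the ID sum to the E-protein sum was 1.72 in NonS I, 2.34 in NonS II, 1.26 in APC shRNA I and 2.02 in APC shRNA II. It was lower in APC shRNA within each replicate number, while the ranges of the groups overlapped. These ratios concern RNA and carry no test.

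ID1 had the highest mean of the 4, 63.8, followed by TCF3 at 35.0, ID2 at 19.5 and TCF12 at 11.8. In NonS all ID1 values were above all TCF3 values, those above all ID2 values and those above all TCF12 values. In APC shRNA the order held for ID1 and TCF3, while ID2 and TCF12 overlapped.

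The genes with the profile most like that of ID1 over the 4 libraries, by Euclidean distance of the log2(value + 1) values centred on their own mean, were MYO1D at a distance of 0.037, CES2 at 0.058 and SERTAD1 at 0.059. MYO1D, an unconventional myosin, was listed at 14 and 19 in NonS against 18 and 23 in APC shRNA, which repeats the order of the ID1 libraries. For ID2 the nearest were MPZL2 at 0.171, ATP1B1 at 0.187 and PRNP at 0.260. ATP1B1, the beta subunit of the sodium pump, was at 80 and 94 in NonS against 43 and 66 in APC shRNA, lowest in APC shRNA I as ID2 was. None of these 6 genes passed the test (limma, Benjamini-Hochberg adjusted p from 0.143 to 0.438), and with 4 libraries many profiles come close to any given one.

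The BMP pathway upstream of the ID genes was read by role. Of 14 BMP ligand genes 9 were at 0 in every library and only BMP4 passed the filter. BMP4 was at 146 and 180 in NonS I and II against 324 and 377 in APC shRNA I and II. Both APC shRNA libraries were above both NonS libraries, as were those of 33.0% of the genes tested. The log2 difference of BMP4 was 1.10 (SE 0.16), which did not pass (limma, Benjamini-Hochberg adjusted p = 0.0545). BMP4 was called higher in 6 of the 11 alternatives that use 4 libraries. Among them were the replicate block (adjusted p = 0.0468, limma), GC content correction (0.0191) and both together (0.00306). With every gene above 0 the adjusted p of BMP4 was 0.0828 (limma). The replicate block, GC content correction and both together also called more genes in all, 1023, 903 and 2464, against 432 in the reported fit. BMP2, the other classical ligand of this class, was at 3 and 4 in NonS against 1 in both APC shRNA libraries. Of 12 receptor and co-receptor genes none reached the filter. ACVR1, a type I receptor, was at 7 and 8 against 6 and 8, and NEO1, a co-receptor for RGM proteins, at 4 and 5 against 9 and 10.

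Of 15 extracellular BMP antagonist genes 11 were at 0, NOG, GREM1 and CHRD among them, 2 were tested and 1 was upregulated. That gene, SOSTDC1, which binds BMPs and also acts on Wnt receptors, was at 3 and 2 in NonS against 20 and 19 in APC shRNA, a log2 difference of 2.56 (SE 0.18, limma, Benjamini-Hochberg adjusted p = 0.0423). NBL1, the DAN antagonist, was at 11 and 12 under both shRNAs and shares exons with MINOS1-NBL1 on its own strand. Of 6 SMAD genes only SMAD3, a TGF-beta transducer, was tested. SMAD3 was at 17 and 22 in NonS against 13 and 18 in APC shRNA, a log2 difference of -0.32 that did not pass (limma, Benjamini-Hochberg adjusted p = 0.383) except with the replicate block plus GC content correction (0.0210). SMAD1, a BMP transducer, was at 5 and 4 in NonS against 8 and 6 in APC shRNA. It was under the filter, and so was SMAD4, at 1 in every library.

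Of 15 BMP feedback and response genes other than ID, 4 were tested and none passed, with a median log2 difference of 0.14. TOB1, an antiproliferative protein that restrains BMP SMADs, was at 27 and 32 in NonS against 12 and 18 in APC shRNA, a difference of -0.95 (limma, Benjamini-Hochberg adjusted p = 0.103). TOB1 was called lower with upper-quartile scaling (adjusted p = 0.0477, limma) and with the replicate block plus GC content correction (0.00686), and in no other alternative. SMURF1, a ubiquitin ligase for BMP SMADs, was at 17 and 21 against 18 and 22. Like ID1, these are genes read in BMP studies, and the inhibitory SMADs were under the filter. SMAD6 was at 7 and 8 against 8 and 10. SMAD7 was at 4 and 6 in NonS against 9 and 13 in APC shRNA. BAMBI, a pseudoreceptor, was at 0 and 1 against 1 and 2. BMP4 had a mean 2.15 times as high in APC shRNA, while ID1, at 1.22 times, overlapped between groups. Neither gene passed the test, and the difference between those ratios was not tested.

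Wnt response genes held the most calls of the lists read: of 21 genes 15 were tested, 8 were upregulated and 0 downregulated, with a median log2 difference of 1.10. These are genes known to respond to APC loss, and the list was chosen with that and with earlier results in view. AXIN2, the feedback scaffold of the destruction complex, was at 16 and 22 in NonS against 124 and 178 in APC shRNA, a log2 difference of 2.92 (SE 0.27, limma, Benjamini-Hochberg adjusted p = 0.0452). NKD1, a Dishevelled-binding inhibitor, was at 0 in both NonS libraries against 28 and 36 in APC shRNA. The others of the 6 with the smallest p were NOTUM, SP5, RNF43 and ASCL2. MYC, which has also been placed downstream of Wnt, was at 114 and 89 in NonS against 85 and 65 in APC shRNA, and did not pass (limma, Benjamini-Hochberg adjusted p = 0.246). MYC was called lower with the replicate block (adjusted p = 0.0479, limma) and with GC content correction added to it (0.00605), and in no other alternative.

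The HMG-box factors whose older names resemble those of E proteins were read apart from them. TCF7 was at 12 and 13 in NonS against 20 and 24 in APC shRNA, a log2 difference of 0.76 that did not pass (limma, Benjamini-Hochberg adjusted p = 0.0593). TCF7 was called higher in the same 6 alternatives as BMP4, with an adjusted p of 0.0474 (limma) with the replicate block and 0.00811 with GC content correction added. With every gene above 0 its adjusted p was 0.0904 (limma). TCF7L2 was at 10 in both NonS libraries against 10 and 12 in APC shRNA (limma, Benjamini-Hochberg adjusted p = 0.481). LEF1 and TCF7L1 were at 0 in every library. The values at TCF3 therefore belong to the E2A locus, while the locus once called TCF3, TCF7L1, had none.

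The tissue-specific class II bHLH factors are partners of E proteins, and ID proteins compete with them for the E proteins. Of 25 such genes 19 were at 0 in every library, and only ASCL2, a Wnt-responsive factor of intestinal stem cells that is also on the Wnt list, was tested. ASCL2 was at 4 in both NonS libraries against 42 and 66 in APC shRNA, a log2 difference of 3.42 (SE 0.26, limma, Benjamini-Hochberg adjusted p = 0.0423). ATOH1, which directs secretory cells, was at 6 and 7 in NonS against 3 in both APC shRNA libraries, under the filter. In the APC shRNA libraries TCF3 and ASCL2 had the highest values of the E proteins and of the class II genes, and in NonS ASCL2 was below ATOH1. Of 13 HES, HEY and DEC repressor genes 7 were at 0, 3 were tested and none passed. HES1, the main Notch effector, was at 27 and 27 against 25 and 26, and HES6, an inhibitor of HES1, at 34 and 33 against 27 and 22 (limma, Benjamini-Hochberg adjusted p = 0.115). HES6 was called lower with the replicate block plus GC content correction (adjusted p = 0.00560, limma).

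Genes described as targets of E proteins or ID proteins in other systems, chiefly inhibitors of cyclin-dependent kinases, were read as a last list. Of 8 genes 5 were tested and 1 was upregulated. CDKN1C, which encodes the kinase inhibitor p57, was at 4 in both NonS libraries against 42 and 56 in APC shRNA, a log2 difference of 3.31 (SE 0.17, limma, Benjamini-Hochberg adjusted p = 0.0423). CDH1, E-cadherin, which E2A proteins repress in other epithelial cells, was at 98 and 119 in NonS against 74 and 85 in APC shRNA. It did not pass the test (limma, Benjamini-Hochberg adjusted p = 0.145). Both APC shRNA libraries were below both NonS libraries, as were those of 27.5% of the genes tested. CDH1 was called lower with the replicate block plus GC content correction (adjusted p = 0.0104, limma).

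**Figure D4:**
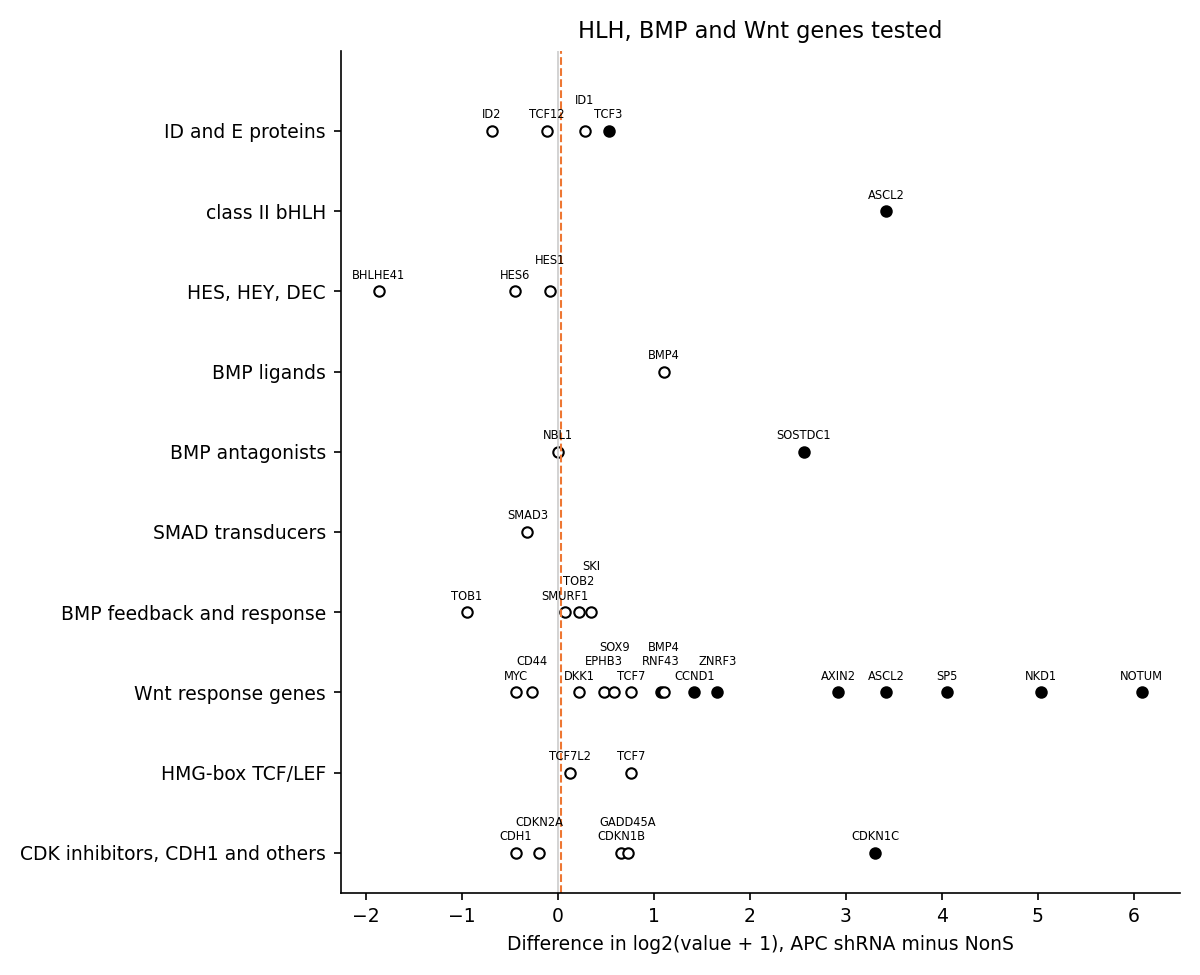
The log2(value + 1) difference of APC shRNA minus NonS (horizontal axis) for each gene tested in 10 lists, with filled points for an adjusted p under 0.05 and a dashed line at 0.03, the median of all 5376 genes tested. ASCL2, BMP4 and TCF7 are on 2 lists each, and TCF3, at 0.53, is the filled point in the top row.

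APC was listed at 3 in NonS I and at 0 in the other libraries, so the targeted transcript was too low to check the labels. Totals per library ranged from 398338 to 413595. Of the epithelial markers, 11 of 11 were above 0 in at least 1 library, with EPCAM from 183 to 224, as were 12799 of all 19729 genes. Among the markers under the filter, CDX2 was at 0 in NonS against 2 and 4 in APC shRNA, CDX1 at 2 in both NonS libraries against 0 in both APC shRNA libraries, and CEACAM5 at 10 and 11 in NonS against 3 in both APC shRNA libraries. LGALS4 was the 1 downregulated marker of the 8 tested. The summed epithelial markers ranged from 4368 to 5421 in NonS and from 4752 to 4950 in APC shRNA. Of 7 fibroblast and smooth muscle markers 6 were at 0 and the list summed to 0 or 1 in each library, and all 4 endothelial markers were at 0. Of 6 blood markers PTPRC and CD3E were at 0, and the list summed to 752 and 912 in NonS against 615 and 858 in APC shRNA, nearly all of it from LYZ, which intestinal Paneth cells also express. The lower mean of ID2 did not pass the test, and in such bulk RNA fewer cells expressing ID2 and less ID2 RNA per cell could not be told apart.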

How the data were processed

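Poly(A) RNA of 4 HT-29 libraries was sequenced as 50 bp single reads from a stranded kit. The authors called bases with bcl2fastq 2.19.0.316, filtered and trimmed the reads, mapped them to human genome assembly 38 with TopHat2, counted them with htseq-count on GENCODE v29 and ran DESeq2 (1.4.1 in the submitters' processing notes, which list hg19 as the build). The strand setting of the counting is not given in the sources used here. What the authors deposited, a whole number for each gene in each library, is treated here as a score of unstated scale: between duplicates of low genes its variance was 0.484 (NonS) and 0.363 (APC shRNA) times the Poisson variance, and value times longest transcript in kb summed to between 980841 and 984873 per library, near 1e+06. Depth in reads is therefore unknown, no count model was run, and rounding limits low values. The authors' table of means, log2 fold changes and adjusted p-values was not used, and 0 columns with values of a sample were left unused.

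Groups came from the labels. On log2(value + 1), a group-only model was fitted in R 4.3.3 by limma 3.58.1, using lmFit and eBayes (trend on), to those 5376 genes whose mean reached 10, and p-values were adjusted over all of them by Benjamini-Hochberg. The prior degrees of freedom were 1.14. The fit was tested on simulated data. Tables were made with Python 3.11.15 and pandas 2.3.3. Genes at 0 in a group get no fold. Positions and shared exons came from GENCODE v29 (19502 of 19729 genes found), and promoter windows from RefSeq on GRCh38.p14, which matched all 7 members.

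The members, the context lists and the tests were chosen with earlier results of these data known. Named were every member, the called genes of each list (at most the 6 with the smallest p), the 2 genes of each list with the highest means, AXIN2, NKD1, BMP4, SMAD6, SMAD7, BAMBI, the 4 HMG-box TCF/LEF genes, APC, and the 3 tested genes nearest in profile to ID1, ID2 and ID3. NOG, GREM1, CHRD, SMAD4, the cell type markers given singly and genes in the closing section were named after their values were seen. Alternatives covered filters, pseudocounts of 0.1 and 5, scaling, a replicate block, GC content correction by loess with a span of 0.5, no trend, and each library left out in turn.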

Additional observations from a re-analysis of the deposited data

How the results depend on the processing

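The log2 difference of ID1 kept its sign and its side of the threshold in all 15 alternatives, and that of ID2 in 14 of 15. That of TCF3 kept both in the 11 alternatives that use 4 libraries, with adjusted p from 0.010 to 0.0481 (limma), and lost the call in each of the 4 with a library left out, where it ranged from 0.50 to 0.55. With a library left out, ID1 ranged from 0.10 to 0.47, ID2 from -1.06 to -0.32 and TCF12 from -0.66 to 0.43, turning sign without NonS I and without APC shRNA II. TCF12 also turned to 0.10 with GC content correction and to 0.10 with the replicate block plus GC content correction. TCF12 fell outside the filter of at least 10 in every library. The number of members called, 1, was 2 with the replicate block plus GC content correction, where ID2 joined TCF3, and 0 to 0 with a library left out. The number of genes called in all, 432, was 1467 with every gene above 0, 273 with at least 10 in every library, 685 with upper-quartile scaling, 712 with equal totals, 903 with GC content correction, 1023 with a replicate block, 2464 with the replicate block plus GC content correction, and 0 to 0 with a library left out (limma, with 1119 to 1330 genes at an unadjusted p under 0.05 on fewer samples). The cause of the other changes was not tested. The replicate block plus GC content correction tested 5364 genes, and with 2464 of them called, a call in that setting sets a gene little apart. Context genes called were 10 in the reported fit and 14 both with every gene above 0 and with a replicate block. Replicate numbers are shared between the groups, but no label or method ties a number to a batch or day, and there are 2 pairs, so the block stays an alternative. Its pairs deviated together (correlation 0.724 across genes). Under the replicate block alone the adjusted p (limma) was 0.0479 for TCF3, 0.0611 for ID1, 0.168 for ID2 and 0.562 for TCF12. Whole-number values with 2 libraries a group and unknown depth limit what can be seen of genes near 0, ID3, ID4 and TCF4 included.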

Other observations

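A few HLH and BMP-responsive genes outside the rule for named genes were picked after their values were seen. BHLHE41, which encodes the circadian bHLH repressor DEC2, was at 26 and 37 in NonS I and II against 6 and 10 in APC shRNA I and II. Its log2 difference of -1.87 (SE 0.33) did not pass (limma, Benjamini-Hochberg adjusted p = 0.0677). Both APC shRNA libraries were below both NonS libraries, as were those of 27.5% of the genes tested. BHLHE41 was called lower in 6 alternatives and not in the others, with an adjusted p of 0.0468 (limma) with the replicate block and 0.00238 with GC content correction added. With every gene above 0 its adjusted p was 0.121 (limma). ATOH8, a bHLH gene induced by BMPs in other cells, was at 1 in both NonS libraries against 8 and 10 in APC shRNA, under the filter on low values. NEUROG3, the bHLH factor that starts enteroendocrine differentiation, was at 7 and 5 in NonS against 3 and 1 in APC shRNA, also under the filter.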
